A study of Mus musculus with 12 samples.

Results

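Angptl4, Lpl, Cd36, Plin2, Vldlr and Fabp1 control how fatty acids are released from lipoproteins, taken into cells and stored, and their levels were followed in kidneys of diabetic and non-diabetic mice with and without the atypical chemokine receptor D6. They were taken by symbol, each from a probe set annotated to that gene alone, with the brightest probe set standing for the gene. All 6 were found among 19936 named genes, with 1 such probe set each, and all 6 lay among the 16480 genes bright enough to be tested. Whole kidneys of mice aged 6 months on the FVB strain were hybridised to Affymetrix mouse gene arrays, 1 array per mouse and 3 mice per group. The groups were OVE-D6 (diabetic, D6 deleted), OVE (diabetic, D6 intact), D6 (not diabetic, D6 deleted) and FVB (not diabetic, D6 intact). Diabetes came from the OVE26 transgene, which raises calmodulin in pancreatic beta cells and is known to cause diabetes early in life. The D6 deletion came from C57BL/6 mice and was bred to FVB over many generations, and all mice ate standard chow. Values are log2 probe-set values, so a difference of 1 is a doubling of signal, and levels of different genes are not set against each other.

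Lipoprotein lipase, the product of Lpl, sits on the capillary wall and frees fatty acids from circulating triglyceride. Angptl4 is a secreted protein that inactivates this lipase, and its gene is induced by fasting, by fatty acids through the PPAR nuclear receptors and by low oxygen. Vldlr encodes a receptor that binds triglyceride-rich lipoproteins, Cd36 encodes a fatty acid transporter and scavenger receptor, Fabp1 encodes a fatty acid binding protein of the cytosol best known from liver, and Plin2 encodes a coat protein of lipid droplets. The proximal tubule draws much of its energy from fatty acids.

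The first principal component of the 16480 tested genes took up 35.9% of the variance. Scores on it were 27.0 and 29.4 for OVE replicates 1 and 2 and 6.95 for OVE replicate 3, against -2.25 to 5.17 for OVE-D6 and -15.1 to -5.07 for the 6 non-diabetic arrays. OVE replicate 3 thus lay apart from the other OVE arrays, and values without it are given beside several results. Ackr2, the gene of D6, lay between 6.74 and 6.98 in the knockouts and between 6.81 and 7.04 in the wild types, and whether its probes fall in the deletion is not known here, so this gene does not check the genotype. The nearby gene Slc6a20b separated the genotypes, at 11.13 to 11.26 in 6 knockout kidneys, against 11.96 to 12.59 in 6 kidneys with intact D6.

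Averaged over both genotypes, diabetes raised the lipase inhibitor gene Angptl4, the fatty acid binding protein gene Fabp1 and the droplet coat gene Plin2, and lowered the lipase gene Lpl and the lipoprotein receptor gene Vldlr. Cd36 did not pass the test. The test was limma with Benjamini-Hochberg adjustment over all 16480 genes at an adjusted p of 0.05, and it called 5 of the 6 genes, 3 higher and 2 lower, where 7.65% of all tested genes were called (4.49% higher and 3.16% lower). Within a single genotype fewer passed. In OVE against FVB 3 of 6 were called (7.28% of all genes, 4.9% higher and 2.38% lower), Angptl4 and Plin2 as higher and Vldlr as lower, and in OVE-D6 against D6 only Angptl4 was called among the 6 (0.285% of all genes, 0.182% higher and 0.103% lower). The groups did not overlap for 3 of the 6 genes in OVE against FVB, where 27.1% of all genes did not overlap (13.6% higher and 13.5% lower). In OVE-D6 against D6 they did not overlap for 6 of 6, 4 higher and 2 lower, where 16.4% of all genes did not (7.72% higher and 8.68% lower). In bulk tissue, fewer cells of a type and less RNA per cell cannot be told apart.

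**Figure D1:**
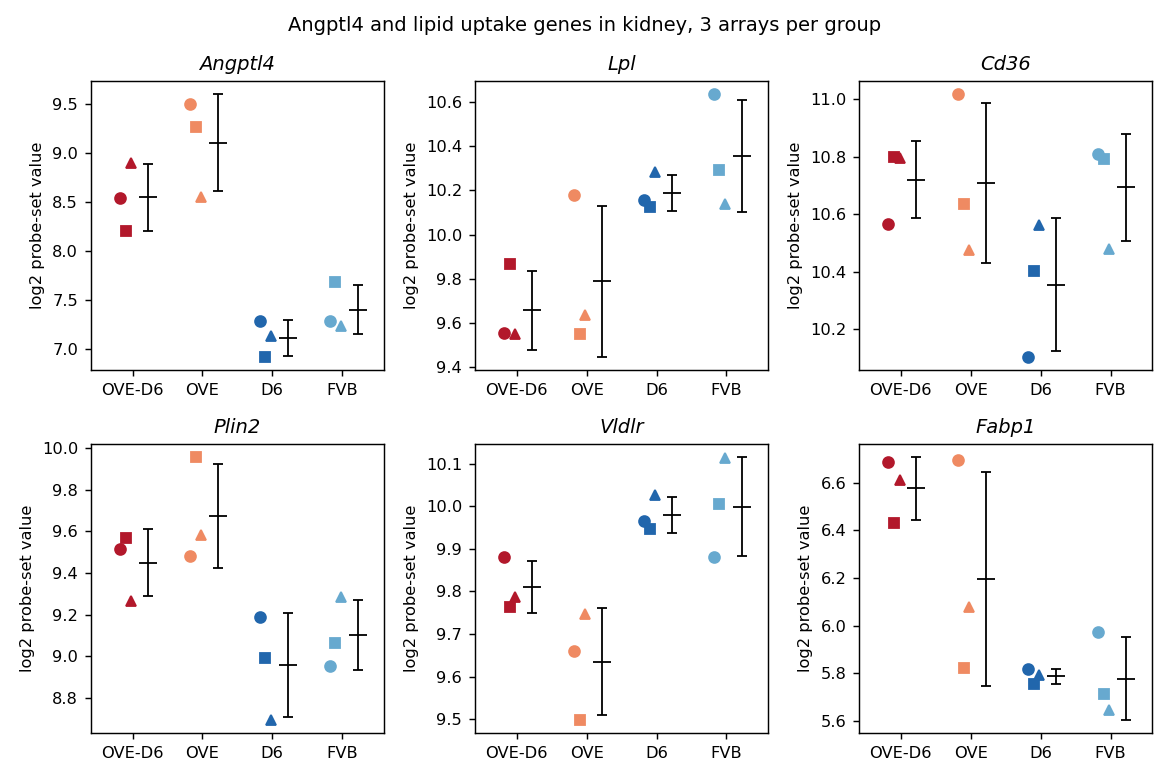
Log2 probe-set values (vertical axes, with a scale of its own in each panel) of the 6 genes in OVE-D6, OVE, D6 and FVB kidneys. Circles, squares and triangles are replicates 1, 2 and 3 of a group, and black bars are the mean and SD of 3 arrays. Angptl4 lies between 8.21 and 9.49 on the diabetic arrays and between 6.92 and 7.68 on the non-diabetic ones.

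Lpl, the lipase gene, had log2 values of 9.56, 9.86 and 9.55 in OVE-D6 kidneys, against 10.16, 10.12 and 10.28 in D6 kidneys. It had 10.18, 9.55 and 9.64 in OVE kidneys, against 10.63, 10.29 and 10.14 in FVB kidneys. The knockout groups did not overlap, whereas OVE replicate 1 lay above the lowest FVB array. Averaged over genotypes Lpl fell by 0.55 ± 0.12 (SE, n = 3 per group, adjusted p = 0.0158), which is 1.46-fold lower. The difference in OVE-D6 against D6 was -0.53 ± 0.16 (adjusted p = 0.258), that in OVE against FVB was -0.57 ± 0.16 (adjusted p = 0.0559), and neither passed. Without OVE replicate 1, OVE against FVB gave -0.76 and passed (adjusted p = 0.0167), and without OVE replicate 3 it gave -0.49 (adjusted p = 0.108). The averaged fall passed in each of the 20 alternatives run, from -0.65 to -0.48.

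Angptl4, the inhibitor of that lipase, had 8.54, 8.21 and 8.89 in OVE-D6 kidneys, against 7.29, 6.92 and 7.13 in D6 kidneys. It had 9.49, 9.26 and 8.54 in OVE kidneys, against 7.28, 7.68 and 7.24 in FVB kidneys. Every diabetic array lay above every non-diabetic array, and OVE replicate 3 lay among the OVE-D6 values. Angptl4 rose 2.96-fold with diabetes averaged over genotypes (log2 1.57 ± 0.16, adjusted p = 0.000286), the 23rd smallest p of all tested genes. In OVE-D6 against D6 it rose 2.70-fold (log2 1.43 ± 0.23, adjusted p = 0.0226), and in OVE against FVB 3.25-fold (log2 1.70 ± 0.23, adjusted p = 0.0026). The averaged rise and the rise in OVE against FVB passed under every alternative run. The rise in OVE-D6 against D6 kept a log2 size of 1.26 to 1.60, but it no longer passed without D6 replicate 1, 2 or 3 (adjusted p = 0.0598, 0.104 and 0.0688) or without OVE-D6 replicate 1 or 3 (adjusted p = 0.0953 and 0.114).

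Vldlr, the lipoprotein receptor gene, had 9.88, 9.76 and 9.79 in OVE-D6 kidneys, against 9.97, 9.95 and 10.03 in D6 kidneys. It had 9.66, 9.50 and 9.75 in OVE kidneys, against 9.88, 10.01 and 10.11 in FVB kidneys. Neither pair of groups overlapped, and the steps were small. Vldlr fell 1.29-fold in OVE against FVB (log2 -0.36 ± 0.08, adjusted p = 0.0236) and differed by -0.17 ± 0.08 in OVE-D6 against D6 (adjusted p = 0.547). The averaged change was -0.27 ± 0.06 (adjusted p = 0.0202), and it missed the threshold without FVB replicate 3 or OVE-D6 replicate 3 (adjusted p = 0.0535 and 0.0512). The call in OVE against FVB ended without FVB replicate 2 or 3 (adjusted p = 0.0715 and 0.098) or OVE replicate 1 or 2 (adjusted p = 0.0518 and 0.0926), and held without OVE replicate 3 (log2 -0.42, adjusted p = 0.0115).

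Cd36, the fatty acid transporter gene, was the member that passed in no comparison. It had 10.56, 10.80 and 10.80 in OVE-D6 kidneys, against 10.10, 10.40 and 10.56 in D6 kidneys, with a gap between the groups too small to show at this rounding. It had 11.02, 10.64 and 10.48 in OVE kidneys, against 10.81, 10.79 and 10.48 in FVB kidneys, and these overlapped. The averaged difference was 0.19 ± 0.11, with a 95% interval of -0.04 to 0.42 (adjusted p = 0.305). In OVE against FVB the interval was -0.31 to 0.35.

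Fabp1, the fatty acid binding protein gene, lay near background on many arrays. It had 6.69, 6.43 and 6.61 in OVE-D6 kidneys, against 5.82, 5.75 and 5.79 in D6 kidneys. It had 6.69, 5.82 and 6.08 in OVE kidneys, against 5.97, 5.71 and 5.65 in FVB kidneys. As a gauge of background, 1015 olfactory receptor genes had a 95th percentile of 5.93, and Fabp1 lay above it on 6 of 12 arrays (all 3 OVE-D6, OVE replicates 1 and 3, and FVB replicate 1), which makes its fold change inexact. The averaged rise was 0.60 ± 0.12 (1.52-fold, adjusted p = 0.0138), and it passed in all 19 alternatives that could test it. In OVE-D6 against D6 Fabp1 differed by 0.79 ± 0.17 (adjusted p = 0.0988), and in OVE against FVB by 0.42 ± 0.17 (adjusted p = 0.165). The difference in OVE-D6 against D6 passed without OVE replicate 1 or 2 (adjusted p = 0.00767 and 0.043). Neither array belongs to that comparison, so the difference stayed at 0.79 and only the spread shared by the 4 groups changed. The difference in OVE against FVB was 0.17 without OVE replicate 1 and 0.61 without OVE replicate 2, and passed in neither case.

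Plin2, the droplet coat gene, had 9.51, 9.57 and 9.26 in OVE-D6 kidneys, against 9.19, 8.99 and 8.69 in D6 kidneys. It had 9.48, 9.96 and 9.58 in OVE kidneys, against 8.95, 9.07 and 9.28 in FVB kidneys. Both diabetic groups lay wholly above their non-diabetic group. The averaged rise was 1.45-fold (log2 0.53 ± 0.11, adjusted p = 0.013) and passed in all 20 alternatives run. OVE-D6 and D6 differed by 0.49 ± 0.15 (adjusted p = 0.252), and OVE and FVB by 0.57 ± 0.15 (adjusted p = 0.0399). The call in OVE against FVB passed in 11 of 21 alternatives. It ended without FVB replicate 1, 2 or 3 (adjusted p = 0.115, 0.112 and 0.0573), OVE replicate 2 (0.145), D6 replicate 2 (0.0542) or OVE-D6 replicate 1 or 2 (0.0548 and 0.051), and held without OVE replicate 3 (log2 0.62, adjusted p = 0.0386). D6 and OVE-D6 arrays are not part of that comparison, so without them the difference stayed at 0.57 and only the shared spread changed.

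**Figure D2:**
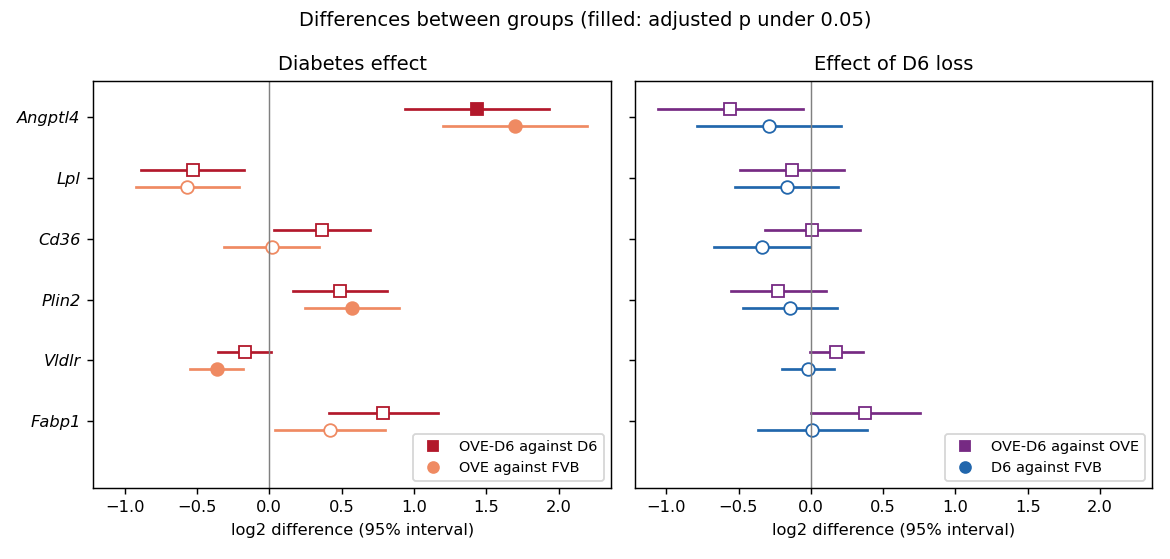
Log2 differences (horizontal axis) with 95% intervals from limma for the 6 genes, the diabetes effect on the left (OVE-D6 against D6 as squares above OVE against FVB as circles) and the effect of D6 loss on the right (OVE-D6 against OVE as squares above D6 against FVB as circles). Filled symbols passed at an adjusted p of 0.05, and they are Angptl4 in both genotypes and Plin2 and Vldlr in OVE against FVB.

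The sequences before the starts of Fabp1 and Plin2 are shown because both genes rose with diabetes, so this choice followed their values. RefSeq promoter windows of build GRCm38.p6, 250 bases before to 50 after each start, were found for 4 of the 6 genes (5 windows in all, for Cd36, Plin2, Vldlr and Fabp1). Capitals mark the nuclear receptor half-site AGGTCA and a loose direct repeat, 2 copies of AGGNCA with 1 base of any kind (N) between them, which can overlap the half-site. Both strands were searched, and the loose repeat was chosen after the windows had been read. Fabp1 lies on the plus strand at chr6:71199629-71199928, and Plin2 on the minus strand at chr4:86670010-86670309.
Fabp1: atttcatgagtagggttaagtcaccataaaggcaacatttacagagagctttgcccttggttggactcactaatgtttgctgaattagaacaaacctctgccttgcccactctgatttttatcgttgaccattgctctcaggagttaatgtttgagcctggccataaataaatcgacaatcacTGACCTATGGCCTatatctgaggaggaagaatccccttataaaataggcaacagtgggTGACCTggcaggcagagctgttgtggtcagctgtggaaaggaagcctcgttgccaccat
Plin2: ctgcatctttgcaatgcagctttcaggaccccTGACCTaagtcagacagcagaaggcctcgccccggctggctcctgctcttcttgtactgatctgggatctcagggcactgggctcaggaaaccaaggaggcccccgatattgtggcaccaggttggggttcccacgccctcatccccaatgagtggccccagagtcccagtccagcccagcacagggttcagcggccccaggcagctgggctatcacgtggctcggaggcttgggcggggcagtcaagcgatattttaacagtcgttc
The Fabp1 window held 2 half-sites and 1 loose repeat, which ran from 67 to 55 bases before the start and overlapped the first half-site. The Plin2 window held 1 half-site, 218 to 213 bases before the start, and the Cd36 window also held 1, while neither Vldlr window held either motif. Of 32851 windows of that length, 16.3% held the half-site and 0.381% the loose repeat. A match of letters is a description and not a bound site.

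Whether losing D6 altered these genes in the diabetic kidney was tested in OVE-D6 against OVE, and none of the 6 was called, where 0.231% of all genes were (0.0485% higher and 0.182% lower). At an unadjusted p under 0.05 there were 2, Angptl4 and Fabp1, and only Vldlr did not overlap between the groups (17.6% of all genes did not, 9.37% higher and 8.24% lower). Angptl4 was lower in OVE-D6 by a log2 difference of -0.56 ± 0.23 (95% interval -1.05 to -0.06, adjusted p = 0.285). Without OVE replicate 3, the array that lay apart, it fell by 0.83 on the log2 scale and passed (adjusted p = 0.0327). Angptl4 passed here in only 1 of 21 alternatives, this one, and the array left out had the lowest OVE value of Angptl4 (8.54). Leaving that array out also raised the calls over all tested genes in OVE-D6 against OVE from 38 to 668. Of 21 macrophage markers 3 fell in OVE-D6 against OVE with all arrays and 18 fell without OVE replicate 3, and their part in the Angptl4 result was not tested. Fabp1 differed by 0.38 ± 0.17 (adjusted p = 0.337), or by 0.63 without OVE replicate 1 and 0.19 without OVE replicate 2. Vldlr differed by 0.18 ± 0.08 and Plin2 by -0.22 ± 0.15. Lpl and Cd36 differed by -0.13 and 0.01, with intervals of -0.49 to 0.23 and -0.32 to 0.34.

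Without diabetes, none of the 6 genes was called in D6 against FVB (0.0121% of all genes were, 0% higher and 0.0121% lower), and none of the 6 had groups that did not overlap, as 9.79% of all genes had (5.59% higher and 4.2% lower). Cd36 was the one gene at an unadjusted p under 0.05, with a difference of -0.34 ± 0.15 (adjusted p = 1 after rounding). Angptl4, Lpl, Plin2, Vldlr and Fabp1 differed by -0.29, -0.17, -0.14, -0.02 and 0.01. For the interaction (the change OVE-D6 against D6 minus the change OVE against FVB) 0% of all genes were called and none of the 6 had an unadjusted p under 0.05. The interaction was -0.27 ± 0.33 for Angptl4 (95% interval -0.97 to 0.44) and 0.37 ± 0.25 for Fabp1, so calls made in a single genotype are not shown to differ between genotypes. At 3 mice per group these intervals leave room for sizeable differences.

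Other genes of fatty acid handling were followed in lists by role, chosen with earlier results of these data known. Targets of the PPAR receptors made up the lipid list with the most calls. Averaged over genotypes, 15 of 31 tested targets rose and none fell (48.4%, where 7.65% of all tested genes were called). Their median log2 change was 0.24, against -0.01 over all tested genes. Pdk4, the kinase that restrains glucose oxidation, rose by 1.51 ± 0.17 (adjusted p = 0.000529). Acot1 and Acot2, acyl-CoA thioesterase genes with closely similar sequences that may share probe signal, rose by 0.87 and 0.51, and Cyp4a10, a fatty acid hydroxylase gene with close relatives, rose by 0.43. In OVE-D6 against D6, 4 of 31 rose (12.9%, where 0.285% of all tested genes were called), and 30 of 31 estimates were positive. The 4 were Pdk4 (3.35-fold), Decr1, which helps to oxidise unsaturated fatty acids (1.40-fold), Acot1 (1.90-fold) and Cyp4a10 (1.38-fold). In OVE against FVB 8 rose (25.8%, where 7.28% of all tested genes were called), and 19 of 31 estimates were positive. Creb3l3, a transcription factor gene of fasting metabolism, was among the 8 and rose by 0.58 on the log2 scale. In D6 against FVB none of the 31 was called (0.0121% of all tested genes were) and 5 estimates were positive, with a median of -0.12. Without OVE replicate 3 the counts called were 14, 6 and 6 in the averaged, OVE-D6 against D6 and OVE against FVB comparisons. Of those genes, 14, 4 and 5 were the ones called with all arrays. Without that array 1916 of 16480 tested genes were called in the averaged comparison and 1901 in OVE against FVB. In OVE-D6 against D6 the calls over all tested genes ran from 17 to 74 with any array left out.

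The receptor genes did not pass the test. None of 13 PPAR receptor, partner and coregulator genes was called in the averaged comparison, with a median of -0.09. Ppara, Ppard and Pparg, the receptor genes, differed by -0.05 ± 0.10, -0.16 ± 0.06 and 0.25 ± 0.09, and none passed (adjusted p = 0.802, 0.163 and 0.121). Of 13 genes for lipase handling and other lipases 1 rose (7.69%, where 7.65% of all tested genes were called). It was Apoc3, which encodes an apolipoprotein that restrains lipoprotein lipase. It had 7.38, 7.21 and 7.67 in OVE-D6 kidneys, against 7.41, 7.24 and 7.55 in D6 kidneys, and 8.21, 8.26 and 7.75 in OVE kidneys, against 7.32, 7.36 and 7.20 in FVB kidneys. Its averaged rise was 0.40 ± 0.10 (adjusted p = 0.0335), with 0.02 in OVE-D6 against D6 and a 1.72-fold rise in OVE against FVB (adjusted p = 0.00965). The interaction was -0.76 ± 0.20 and did not pass (adjusted p = 0.274). Without OVE replicate 3, 2 of the 13 genes rose in the averaged comparison and 1 was called as lower in the interaction.

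In the averaged comparison 7.65% of all tested genes were called. Of 19 fatty acid uptake, binding and activation genes 1 rose and 1 fell there (10.5%). Fabp4, a binding protein of fat cells, endothelium and macrophages, rose by 0.55 ± 0.14 (adjusted p = 0.0361), and Fabp7, known from brain, fell by 0.42 ± 0.12 (adjusted p = 0.0473). The list's median was 0.01. Without OVE replicate 3, 2 genes of the list rose and 1 fell, and of the 2 calls with all arrays that of Fabp4 held and that of Fabp7 ended. Of 27 lipid droplet and triglyceride genes 3 rose and none fell (11.1%), with a median of 0.07. They were Mogat1, which makes diacylglycerol, at 1.36-fold, and Lpin1 and Lpin2, phosphatidate phosphatase genes, at 1.51-fold and 1.27-fold. Of 15 lipoprotein and scavenger receptors 3 rose and 1 fell (26.7%), with a median of 0.14. Stab1 and Msr1, scavenger receptors of macrophages and, for Stab1, of sinusoidal endothelium, rose by 0.65 and 0.51, Lrp1 rose by 0.41, and Lrp2, the megalin gene of the proximal tubule, fell by 0.26. None of the 15 was called in OVE-D6 against D6, where 0.285% of all tested genes were called. There Msr1, Lrp1, Stab1 and Lrp2 differed by -0.05, 0.19, 0.46 and -0.16. In OVE against FVB they differed by 1.07, 0.64, 0.83 and -0.35. All 4 passed in OVE against FVB, where 7.28% of all tested genes were called. The interaction called none of the 15 with all arrays and 3 as lower without OVE replicate 3. In OVE-D6 against OVE none was called with all arrays and 5 fell without OVE replicate 3, where the calls over all tested genes were 38 and 668. The Msr1 means lay near the olfactory receptor level, so its size is not exact. Of 22 measured uptake, binding and activation genes 6 averaged under that level. So did 2 of 27 droplet and triglyceride genes, 2 of 16 measured receptors and 2 of 31 PPAR targets.

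**Figure D3:**
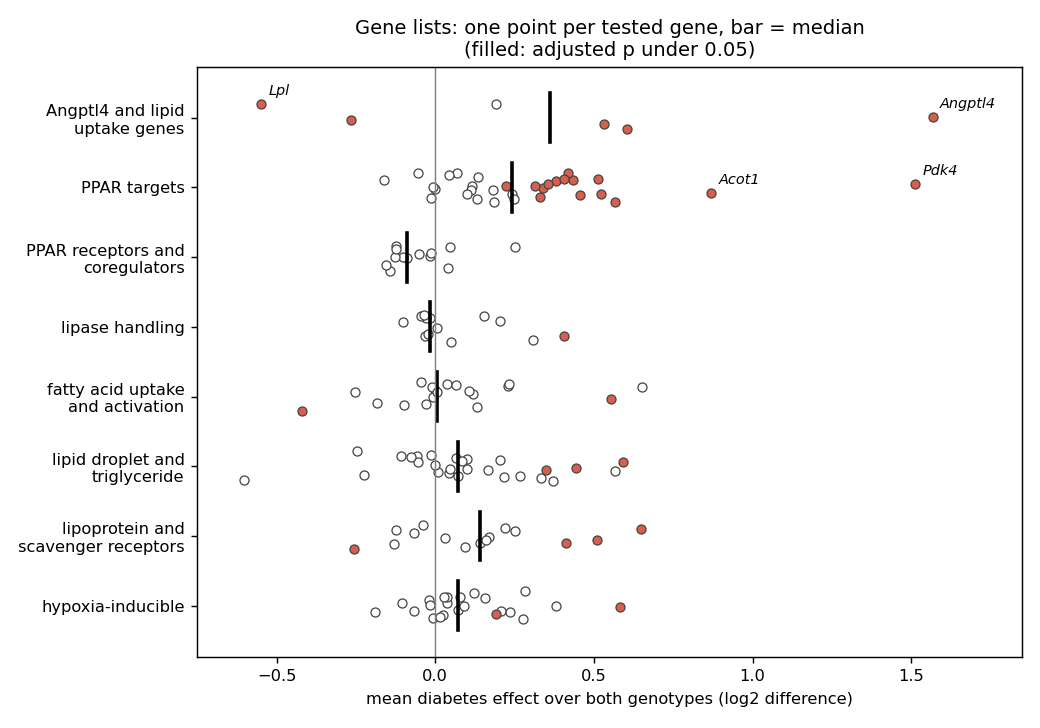
Mean diabetes effect over both genotypes (horizontal axis, log2 difference) for each tested gene of 8 lists, 1 point per gene, with a black bar at each list's median. Filled points passed at an adjusted p of 0.05. Angptl4 at 1.57 and Pdk4 at 1.51 lie at the right end, and 15 of 31 PPAR targets are filled.

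Markers of other cell types were measured on the same arrays. The mean log2 level of 21 macrophage and monocyte markers ran from 7.33 to 7.52 in OVE-D6, from 7.75 to 8.85 in OVE, from 7.40 to 7.73 in D6 and from 7.11 to 7.40 in FVB. In OVE against FVB 17 of the 21 rose, with a median of 1.31, where 7.28% of all tested genes were called (4.9% higher). In OVE-D6 against D6 none of the 21 was called, where 0.285% of all tested genes were, and the median was -0.17. Averaged over genotypes 5 rose (23.8%, where 7.65% of all tested genes were called). Without OVE replicate 3, 1916 of 16480 tested genes were called in that comparison, and 17 of the 21 markers rose. These markers moved with Angptl4 and Plin2 in OVE against FVB. The part of macrophages in the results on the 6 genes was not tested.

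Fat tissue is known to express Lpl, Cd36 and Angptl4, so the levels of 12 tested fat tissue markers were averaged. Their mean level ran from 7.08 to 8.23 in OVE-D6, from 7.53 to 7.93 in OVE, from 7.26 to 7.63 in D6 and from 6.77 to 8.43 in FVB. Of the fat-defining genes, the adiponectin gene Adipoq ran from 4.28 to 6.92 over the 12 arrays, on both sides of the olfactory receptor level of 5.93, Lep averaged 5.40, and Plin1 averaged 7.22. Of the 12 markers 1, Fabp4, rose in the averaged comparison (8.33%, where 7.65% of all tested genes were called), or 2 without OVE replicate 3. With the fat marker level as a covariate the averaged differences were 1.55 for Angptl4, -0.52 for Lpl, 0.54 for Plin2, -0.28 for Vldlr and 0.61 for Fabp1, and the same 5 genes passed. The covariate ended the Plin2 call in OVE against FVB (adjusted p = 0.0509), and Lpl passed there with it (log2 -0.57, adjusted p = 0.0399). The covariate includes Fabp4, which itself rose, and 4 of the 13 measured fat markers averaged under the olfactory receptor level. This fit therefore cannot settle the part of fat tissue in these results, which was not tested. In the averaged comparison 5 of 16 proximal tubule markers fell (31.2%, median -0.08). Of 13 markers of the loop, distal tubule, collecting duct and podocyte 4 fell (30.8%, median -0.21). Among 15 endothelial markers 1 rose (6.67%), Cdh5 by 0.24 on the log2 scale. Without OVE replicate 3, 1 endothelial marker rose and 1 fell, and Cdh5 was neither.

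**Figure D4:**
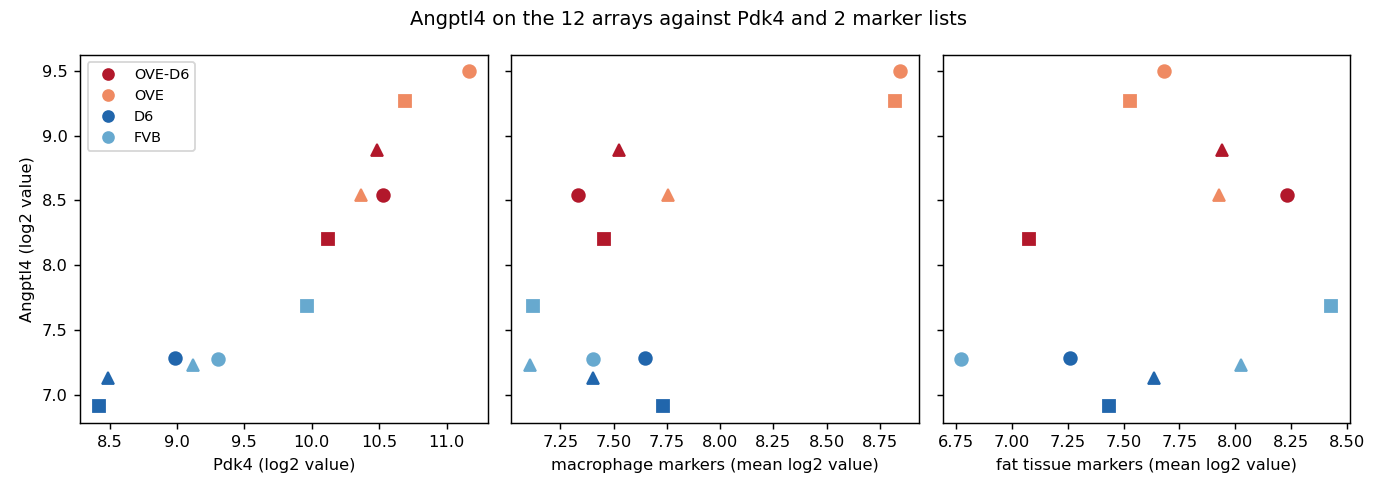
Angptl4 (vertical axis, log2 value) on each of the 12 arrays against Pdk4 (left), the mean of 21 macrophage markers (middle) and the mean of 12 fat tissue markers (right), all as log2 values. Circles, squares and triangles are replicates 1, 2 and 3. Angptl4 spans 8.21 to 8.89 on the OVE-D6 arrays and 8.54 to 9.49 on the OVE arrays, and the macrophage marker level spans 7.33 to 7.52 and 7.75 to 8.85 on them. The part of either cell type in the Angptl4 values was not tested.

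The genes whose values followed Angptl4 most closely over the 12 arrays were Aldh1a1, a retinaldehyde dehydrogenase gene (Pearson's r = 0.975), Kif23, a mitotic kinesin gene (0.973), Stab1 (0.962), Aldh1a7, a relative of Aldh1a1 (0.955), Pdk4 (0.955) and Mxra7 (0.951). Pdk4 had 10.53, 10.12 and 10.48 in OVE-D6 kidneys, 11.17, 10.69 and 10.36 in OVE kidneys, 8.99, 8.42 and 8.49 in D6 kidneys and 9.31, 9.96 and 9.12 in FVB kidneys. FVB replicate 2 was the highest non-diabetic array for both Pdk4 and Angptl4. The closest genes to Lpl were Erbb4, a growth factor receptor gene (0.969), St8sia6 (0.951) and Sned1 (0.949), and those to Vldlr were Spag4 (0.976), Marchf6 (0.973) and the adenosine kinase gene Adk (0.959). Fabp1 lay closest to Crat, the carnitine acetyltransferase gene (0.962), Mideas (0.952) and Cd82 (0.93), and Plin2 to Tnfrsf10b (0.953), Dnajb9 (0.912) and Eif5a2 (0.91). Cd36 had the weakest likeness, with Map3k3 at 0.868, Sult1d1 at 0.862 and Wdr26 at 0.861. Among the members, r was 0.782 between Angptl4 and Plin2, -0.851 between Angptl4 and Vldlr and -0.653 between Angptl4 and Lpl. These are descriptions over 12 arrays that fall into 4 groups, so a shared group difference alone gives a high r.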

How the data were processed

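Per the labels' protocols, RNA from each kidney went through Ambion and Affymetrix whole-transcript kits before hybridisation. The authors deposited log2 values per probe set. How probes were summarised and normalised is not given in the sources used here. Array medians lay between 6.84 and 6.93, and no further scaling was applied. The number of arrays limits the precision.

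Of 35556 probe sets, 21789 carried 1 symbol, 1621 carried several and 12146 stayed unnamed here. Names were updated through the gene table of GRCm38.p6 by Entrez identifier (21698) or accession (3), and 88 were kept. The brightest probe set stood for each of 19936 genes, and 16480 above the array's 25th percentile on at least 3 arrays were tested, all 6 members among them. limma 3.58.1 in R 4.3.3 (lmFit over 12 arrays in a group-means model, eBayes defaults, Benjamini-Hochberg) gave 6 comparisons. Standard errors come from the moderated variance.

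The members and lists were chosen with earlier results of these data known. The text names the 6 members, up to 4 called genes per list and comparison, and the genes with the highest Pearson's r to a member (6 for Angptl4, 3 for each other). The ranking by r left out the members and predicted or unnamed genes. It also left out any symbol opening with C or D and a digit, such as C1qa, so closer genes may exist. Other values named, such as the PPAR receptor genes, were chosen after their values were seen. Alternatives changed the filter, normalisation, probe sets, variance model, array weights, arrays and covariates. List counts without OVE replicate 3 were added after seeing the data. The fits were tested on simulated data. Figures used Python 3.11.15 and matplotlib 3.10.9.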

Additional observations from a re-analysis of the deposited data

How the results depend on the processing

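Of the 6 genes, the count called for the mean diabetes effect stayed between 4 and 5 with any array left out. In OVE against FVB the count of 3 was 1 with only the 2 groups compared, and between 1 and 3 with an array left out. In OVE-D6 against D6 the count of 1 was 2 with array weights, 2 with only the 2 groups compared, and between 0 and 2 with an array left out. In OVE-D6 against OVE it lay between 0 and 1. With the replicate number as a block it was 0 in OVE-D6 against D6 (Angptl4, adjusted p = 0.0616), 2 in OVE against FVB and 5 for the mean diabetes effect. The labels do not say that the numbers pair the mice. Same-numbered deviations from the group means correlated between -0.25 and 0.12 over 18 pairs, and 1 of 12 arrays correlated best with its own number. With so few arrays these values cannot exclude a pairing. Estimates that changed sign were all uncalled. Cd36 in OVE-D6 against OVE was -0.0028 with quantile normalization and -0.023 with array weights, and -0.11 to 0.16 with an array left out. Lpl was -0.00063 in the interaction with array weights (-0.10 to 0.23 with an array left out), and -0.25 to 0.065 in OVE-D6 against OVE. With the fat marker covariate, D6 against FVB was -0.0016 for Fabp1 (-0.056 to 0.11 with an array left out) and 0.015 for Vldlr (-0.079 to 0.037). With an array left out, Cd36 in OVE against FVB ran from -0.14 to 0.13 and Plin2 in the interaction from -0.21 to 0.060. The causes were not tested. Over all genes, calls ran from 359 to 1901 in OVE against FVB (1200 with all arrays), 657 to 1916 for the mean effect (1260), 17 to 87 in OVE-D6 against D6 (47), 0 to 668 in OVE-D6 against OVE (38), 0 to 377 in the interaction (0) and 1 to 4 in D6 against FVB (2). The counts of 1901, 1916 and 668 came without OVE replicate 3. List counts without that array are to be read beside these counts, out of 16480 tested genes. Fabp1 could not be tested with the filter at the 50th percentile. Signal near background limits Fabp1, Msr1 and some other genes of the lists.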

Other observations

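Angptl4 and Vldlr are also known as hypoxia-inducible genes, and other genes of that kind were measured as a list. Of 23 tested hypoxia-inducible genes 2 rose and none fell with diabetes averaged over genotypes (7.65% of all tested genes were called), with a median log2 change of 0.07 against -0.01 over all genes. They were Adm, which encodes the vasodilator peptide adrenomedullin, by 0.58 ± 0.09 on the log2 scale (SE over 3 mice per group; limma, adjusted p = 0.00418), and Pfkfb4, a regulator of glycolysis, by 0.19 ± 0.05 (adjusted p = 0.0465). Without OVE replicate 3, 1 rose and 1 fell, where 1916 of 16480 tested genes were called. In OVE-D6 against D6 none of the 23 was called, with a median of 0.03, where 0.285% of all tested genes were called. Hilpda, a hypoxia-inducible inhibitor of droplet lipolysis, averaged 5.69, under the olfactory receptor level of 5.93.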
